A study of Mus musculus with 24 samples.

Results

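Neurod1, Pax6, Etv1, Barhl1, Gabra6, Gabrd, Grin2c, Cbln1, Cbln3 and Fat2 are genes that mark the granule cells of the mouse cerebellum. They were chosen by name as genes known for this cell type, with earlier results of these data known, and were found in both count tables by gene symbol, with 1 gene identifier for each symbol. They are 10 of the 46078 genes counted. All 10 had enough reads to be tested in the cerebellum at both ages.

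The libraries come from mice that make GFP-PR28, a fluorescent protein joined to a chain of proline and arginine repeats, a dipeptide repeat protein of the kind that the C9orf72 repeat expansion produces. The construct sits in the Rosa26 site behind a stop that Cre recombinase removes, and Cre is driven by the Thy1 promoter, which is active in neurons. Heterozygous mice were GFP-PR28 flox/+ with Thy1-Cre+/-, and their control littermates were GFP-PR28 flox/+ with Thy1-Cre-/-, so that both groups carry the floxed construct on a C57BL/6 background. RNA sequencing covered the cerebellum at 2 and 5 months and the cortex and lumbar spinal cord at 6 months, with 3 mice of each genotype at every age and tissue, 8 groups and 24 libraries in all. A cerebellum library held 12835400 to 16327811 reads on genes, and a cortex or spinal cord library 17084506 to 25490124. These counts do not show which cells of the cerebellum make GFP-PR28, so a difference in a granule cell gene does not show that granule cells make it.

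Granule cells are small excitatory neurons that fill the inner layer of the cerebellar cortex. They receive mossy fibre input, are held in check by inhibition from Golgi cells, and send parallel fibres to the dendrites of Purkinje cells. During development their precursors divide in an outer layer under the control of Atoh1, then leave the cell cycle, migrate inward and switch on the receptors and synaptic proteins of the mature cell.

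The members fall into such roles. Neurod1 is a basic helix-loop-helix factor needed for granule cell differentiation and survival, Pax6 a paired-box homeobox factor of migrating and mature granule cells, Etv1 an ETS factor tied to their maturation by activity, and Barhl1 a homeobox factor of the lineage from the rhombic lip. Gabra6 and Gabrd encode the alpha 6 and delta subunits of the GABA-A receptor, which together form receptors outside the synapse that carry tonic inhibition. Grin2c encodes the NMDA receptor subunit of mature granule cells. Cbln1 and Cbln3 encode cerebellins, secreted proteins of the synapse between parallel fibres and Purkinje cells. Fat2 is a giant cadherin of the parallel fibres.

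Levels are given in CPM, the reads of a gene per 1000000 reads of its library, with library sizes scaled by the trimmed mean of M values (TMM) within each comparison, as mean ± SD over the 3 mice of a group. Fold changes are log2 ratios of heterozygous over control mice from edgeR with their standard error (SE), and called genes are those with an adjusted p below 0.05 and a log2 fold change beyond 0.2 in either direction.

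In the cerebellum at 2 months, control mouse 1 stood apart from the other 5 mice in the members themselves. Its level lay outside the range of those 5 for 9 of the 10 members, lowest for 6 and highest for 3, with Barhl1 as the exception. The share of all genes for which it lay outside was not computed. Other libraries were also extreme for several members within their comparison. Control mouse 3 of 2 months was lowest for 1 and highest for 4. Heterozygous mouse 12 of 5 months was lowest for 3 and highest for 3, and cortex heterozygous mouse 2 lowest for 1 and highest for 6. In control mouse 1 of 2 months, Etv1 stood at 0.690 times and Gabra6 at 0.775 times the mean of the other 5 mice, and Cbln1 at 1.30 times. Over all tested genes, the SD of this library's log2 deviations was 0.367, against 0.158 to 0.180 in the other libraries of that age. Ranked across genes, which are not independent replicates, those deviations correlated with the GC content of the transcript at a Spearman's rho of 0.442, where the other 5 libraries had -0.284 to -0.156. The fold changes and counts of the members at 2 months are given with and without this mouse, and its part in them was not tested beyond that; DESeq2 was not run without it. In the cortex, control mouse 1 stood apart over all genes, with an SD of 0.4135 against 0.206 to 0.236 in the other cortex libraries.

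The members matched their label by tissue. In control mice, each of the 10 had a higher CPM in every cerebellum library at both ages than in any cortex or spinal cord library, and this also held with library totals in place of TMM. Tissue goes with age and with the count table, so no test was made. Genes were ranked by the smaller of their log2 ratios of cerebellum over cortex and over spinal cord in the 5-month controls, among 10446 genes with a mean of at least 10 CPM. Cbln3 ranked 1, Fat2 ranked 2, Gabra6 ranked 4 and Neurod1 ranked 12. Cbln1 followed at 43, Pax6 at 53, Barhl1 at 100, Etv1 at 106 and Grin2c at 112. Gabrd came far behind at rank 1255, since its mean in the cerebellum was 1.77 times that in the cortex but 32.2 times that in the spinal cord. The 10 genes at the top of this ranking were Cbln3, Fat2, Car8, Gabra6, Ppp1r17, Pcp2, Crtam, Nrk, Sycp1 and Arhgef33, of which Car8, Ppp1r17 and Pcp2 mark Purkinje cells. Of the 7 spinal cord markers, the Hox genes Hoxc8, Hoxc9, Hoxc10 and Hoxa9 and the motor neuron factor Mnx1 had no read in any 5-month cerebellum library.

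Cbln3 and Fat2 led the members by the smaller of their ratios. Cbln3 had a mean of 1483 CPM in the 5-month control cerebellum, 1.47 CPM in control cortex and 7.53 CPM in control spinal cord, scaled over all 24 libraries. Fat2 had 825 CPM, 0.550 CPM and 5.59 CPM in the same order. Gabra6 rested on only 1 to 9 reads per control cortex library and Barhl1 on 1 to 3, so their ratios to the cortex are loosely measured at this depth. For Cbln3, Fat2 and Gabra6 the smaller ratio, which set the rank, was that to the spinal cord, where the control mice were uneven. Control mice 1 to 3 of the cord had 12.3, 2.03 and 8.29 CPM of Cbln3. They had 13.5, 0.662 and 2.59 CPM of Fat2, and 18.2, 0.520 and 4.61 CPM of Gabra6. Etv1, in contrast, was also present elsewhere, with 411 CPM in the cerebellum, 42.6 CPM in the cortex and 58.4 CPM in the spinal cord.

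To compare the members with one another, levels were divided by the length of all exons of the gene in kilobases. In 5-month controls, Cbln3 at 304.8 ± 13.1 CPM per kilobase and Gabra6 at 304.1 ± 7.69 CPM per kilobase headed the order, and their ranges overlapped. Cbln1 followed at 235 CPM per kilobase, Neurod1 at 171, Grin2c at 88.3, Gabrd at 66.0 and Fat2 at 56.8. Etv1 came next at 30.9 CPM per kilobase, Pax6 at 10.8 and Barhl1 at 4.33. From Cbln1 down, no gene's 3 control values overlapped those of its neighbour in the order. The order also rests on the exon length used, 13.3 kilobases for Etv1 and 2.73 for Neurod1, which the spread of mice does not measure. Before that division Etv1 had 411 CPM and Neurod1 467 CPM, scaled over all 24 libraries. At 2 months the 3 control values of Gabra6, Cbln3 and Cbln1 overlapped, with means of 321.5, 310.8 and 275 CPM per kilobase, as did those of Grin2c and Gabrd. None overlapped without control mouse 1, and the means were 352 for Gabra6, 298 for Cbln3, 247 for Cbln1, 87.4 for Grin2c and 72.2 for Gabrd.

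**Figure D1:**
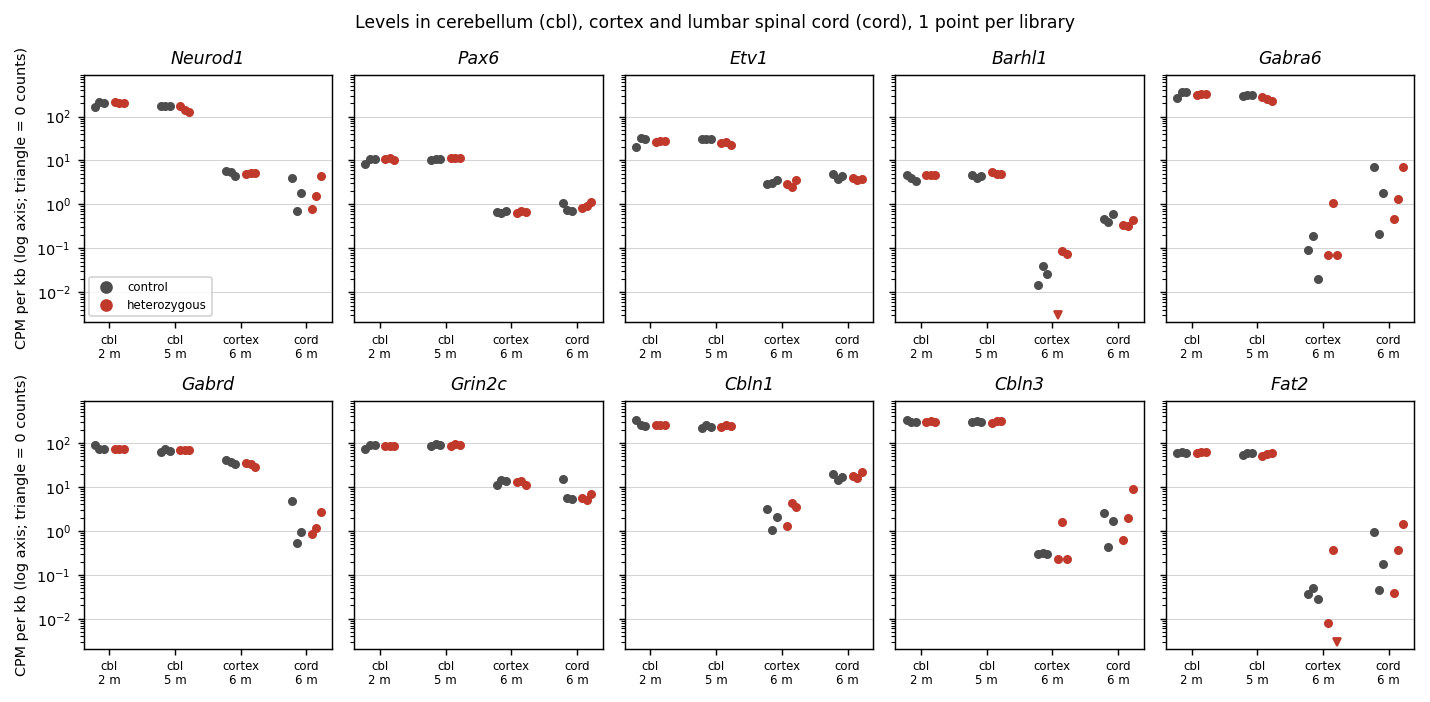
Level of each member in every library of the 8 groups, in CPM per kilobase of exon on a log axis, with triangles for libraries without a read. Every control cerebellum library lies above every control cortex and spinal cord library for all 10 members, with Gabrd the closest at 66.0 CPM per kilobase in the 5-month cerebellum against 37.3 in the cortex.

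Promoter windows are shown here for Etv1 and Gabra6, the 2 members that fell at 5 months, and for Barhl1, which did not pass the test. RefSeq promoter windows on build GRCm38.p6, 250 bases before to 50 after a gene's start, were available for 8 of the 10 members, 11 windows in all, and not for Cbln1 and Gabrd. Each was searched on both strands for the E-boxes CAGATG and CAGCTG, which basic helix-loop-helix factors such as Neurod1 are known to bind, for the CCAAT box CCAAT and for the TATA box TATAAA. Among 32851 promoter windows of the same length, 17.2% held CAGATG, 16.3% CAGCTG, 37.4% CCAAT and 13.6% TATAAA. The Gabra6 window (chr11:42321023-42321322, minus strand) held 1 CCAAT box, read on the other strand as ATTGG, with a GC content of 42.0% against a median of 52.7% over all windows. Etv1 has 2 windows, chr12:38779832-38780131 and chr12:38783461-38783760, both on the plus strand. The former held none of the 4 motifs, and the latter held CAGATG, read as CATCTG, and TATAAA, read as TTTATA. Barhl1 also has 2 windows, chr2:28916619-28916918 and chr2:28912446-28912745, both on the minus strand and each with 1 CAGCTG, which reads the same on both strands; the former is shown. Of the windows not shown, 1 of the 2 Pax6 windows held a CCAAT box, and the other Pax6 window and those of Neurod1, Cbln3, Fat2 and Grin2c held none of the 4 motifs. Capitals mark these matches, which are a description of the letters and no evidence of binding.
Gabra6: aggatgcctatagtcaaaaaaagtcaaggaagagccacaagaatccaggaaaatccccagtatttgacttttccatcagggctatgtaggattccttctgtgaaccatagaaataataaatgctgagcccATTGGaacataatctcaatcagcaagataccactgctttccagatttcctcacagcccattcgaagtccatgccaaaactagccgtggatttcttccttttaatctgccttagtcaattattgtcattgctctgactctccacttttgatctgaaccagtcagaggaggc
Etv1 window 1: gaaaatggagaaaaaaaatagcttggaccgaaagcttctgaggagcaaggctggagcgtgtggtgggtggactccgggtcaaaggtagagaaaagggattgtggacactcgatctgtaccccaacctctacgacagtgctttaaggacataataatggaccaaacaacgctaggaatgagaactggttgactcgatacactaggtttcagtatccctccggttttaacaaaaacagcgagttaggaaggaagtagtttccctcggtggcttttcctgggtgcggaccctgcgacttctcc
Etv1 window 2: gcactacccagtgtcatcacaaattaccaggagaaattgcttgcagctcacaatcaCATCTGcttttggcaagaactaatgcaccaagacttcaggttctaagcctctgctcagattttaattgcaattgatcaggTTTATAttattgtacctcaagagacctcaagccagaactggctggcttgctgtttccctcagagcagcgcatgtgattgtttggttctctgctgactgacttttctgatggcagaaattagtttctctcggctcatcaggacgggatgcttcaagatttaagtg
Barhl1: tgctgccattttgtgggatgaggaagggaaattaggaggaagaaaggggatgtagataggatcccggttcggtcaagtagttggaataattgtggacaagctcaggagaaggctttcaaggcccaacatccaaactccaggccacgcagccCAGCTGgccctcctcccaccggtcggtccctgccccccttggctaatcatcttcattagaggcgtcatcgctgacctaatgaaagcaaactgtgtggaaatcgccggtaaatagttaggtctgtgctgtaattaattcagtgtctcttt

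At 5 months, 2 of the 10 members fell in heterozygous mice, the transcription factor Etv1 and the receptor subunit Gabra6, while 0 rose and 8 did not pass the test. Of the 10, 3 had an unadjusted p under 0.05 in edgeR, as did 3338 of all 16481 genes, and DESeq2 called 2, and 641 of all genes. Among all 16481 genes tested, 2.72% were called lower, 2.37% higher and 5.09% in either direction. The groups did not overlap for 4 members, where 24.8% of all genes did not overlap, with Etv1 and Gabra6 below and Pax6 and Barhl1 above the controls. The median log2 fold change of the members was 0.03, against 0.01 over all tested genes, with 6 members positive and 4 negative. Summed over the 10 members, the control mice held 5259, 5688 and 5438 CPM and the heterozygous mice 5189, 5361 and 5299 CPM, and these ranges overlap. Fewer granule cells and less RNA per granule cell cannot be told apart in bulk tissue. Without any 1 of control mice 7, 9 and 11 or heterozygous mice 10 and 12, 1 member was called, and 3 were called without heterozygous mouse 8. In a fit of all 12 cerebellum libraries 0 were called. The share of all genes called in these alternative fits was not computed, so their counts cannot be set against it.

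Etv1 (ENSMUSG00000004151, chr12:38779380-38870484, plus strand) showed the clearest difference. Its level was 414, 414 and 412 CPM in control mice 7, 9 and 11, and 339, 357 and 311 CPM in heterozygous mice 8, 10 and 12. The controls were almost identical, and every heterozygous mouse lay below all of them, mouse 12 lowest. Mean Etv1 dropped from 413 ± 1.23 to 335 ± 23.3 CPM (log2 fold change -0.30, SE 0.05, edgeR adjusted p = 0.000343). The call held in 13 of 14 alternative fits, among them each of the 6 with a single library left out, with log2 fold changes from -0.35 to -0.25 and adjusted p from 5.12e-10 to 0.362. It was lost in the fit of all 12 libraries (adjusted p = 0.362), which holds control mouse 1 of 2 months, and the same fit without that mouse gave 1.41e-05.

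Gabra6 (ENSMUSG00000020428, chr11:42306437-42321072, minus strand) was the other member that fell. Control mice 7, 9 and 11 had 741, 777 and 764 CPM, and heterozygous mice 8, 10 and 12 had 706, 636 and 572 CPM. No heterozygous value reached the controls, although mouse 8 came near the lowest of them. Its mean was 760.5 ± 18.3 CPM in control and 638 ± 67.1 CPM in heterozygous mice (log2 fold change -0.25, SE 0.06, edgeR adjusted p = 0.0425). This call is close to the threshold and held in 7 of 14 alternative fits, with adjusted p from 1.66e-07 to 0.311. It was lost with library totals in place of TMM (log2 fold change -0.21, adjusted p = 0.0781) and with all 12 libraries in 1 fit (adjusted p = 0.311; 0.0127 without the 2-month control mouse 1). It was lost as well without control mouse 7 (adjusted p = 0.0867), 9 (0.126) or 11 (0.119), without heterozygous mouse 10 (0.153), and without mouse 12, where the log2 fold change was -0.18 and so under the fold threshold.

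Neurod1 pointed the same way in 2 heterozygous mice of 3. Its level was 465, 474 and 470.1 CPM in the controls and 479, 399 and 363 CPM in heterozygous mice 8, 10 and 12. Mouse 8 lay above every control and the other heterozygous mice below, so the groups overlap. The log2 fold change was -0.18 (SE 0.10, edgeR adjusted p = 0.401), and Neurod1 was not called. Without heterozygous mouse 8 it was -0.30 with an adjusted p of 0.000126, a call; over 14 alternative fits the adjusted p ran from 0.000126 to 0.601. Neurod1 shares exon sequence with Cerkl on the same strand and with Gm26755 on the opposite strand, Grin2c with Gm25837 on the opposite strand, and how the authors counted reads in such overlaps is not stated.

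The other transcription factors were higher in heterozygous mice but did not pass the test. Pax6 had 123, 128 and 129 CPM in the controls and 132, 139 and 134 CPM in heterozygous mice. Barhl1, the member with the fewest reads, had 18.1, 15.5 and 17.4 CPM in the controls and 21.3, 20.0 and 20.0 CPM in heterozygous mice, from 243 to 334 reads. For both genes every heterozygous mouse lay above every control. The log2 fold change of Pax6 was 0.09 (SE 0.04, edgeR adjusted p = 0.256) and that of Barhl1 0.27 (SE 0.09, adjusted p = 0.0900). Barhl1 was called only with library totals in place of TMM (log2 fold change 0.31, adjusted p = 0.0497), within a range of 0.0497 to 0.319 over its 14 alternative fits.

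Gabrd, the partner of Gabra6 in extrasynaptic receptors, did not pass the test. It had 182, 203 and 187 CPM in the controls and 204, 200.4 and 206 CPM in heterozygous mice. The groups overlap through control mouse 9, and the log2 fold change was 0.09 (SE 0.05, edgeR adjusted p = 0.253). Grin2c had 433, 466 and 441 CPM in the controls and 443, 473 and 457 CPM in heterozygous mice, interleaved values with a log2 fold change of 0.03 (adjusted p = 0.704).

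The synaptic and adhesion genes overlapped between the groups. Cbln1 ran from 669.9 to 779.8 CPM in the controls and from 711 to 806 CPM in heterozygous mice, and its log2 fold change was 0.09 (edgeR adjusted p = 0.448). Cbln3 ran from 1443 to 1560.0 CPM and from 1419 to 1589 CPM; its log2 fold change, 0.02 (adjusted p = 0.852), turned negative when a single library was left out, down to -0.02. Fat2 ran from 770.2 to 871 CPM and from 735 to 880.3 CPM. Its log2 fold change was -0.04 (adjusted p = 0.806) and had the other sign with library totals, 0.00, after an offset for length and GC, 0.02, and when a single library was left out, up to 0.02.

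**Figure D2:**
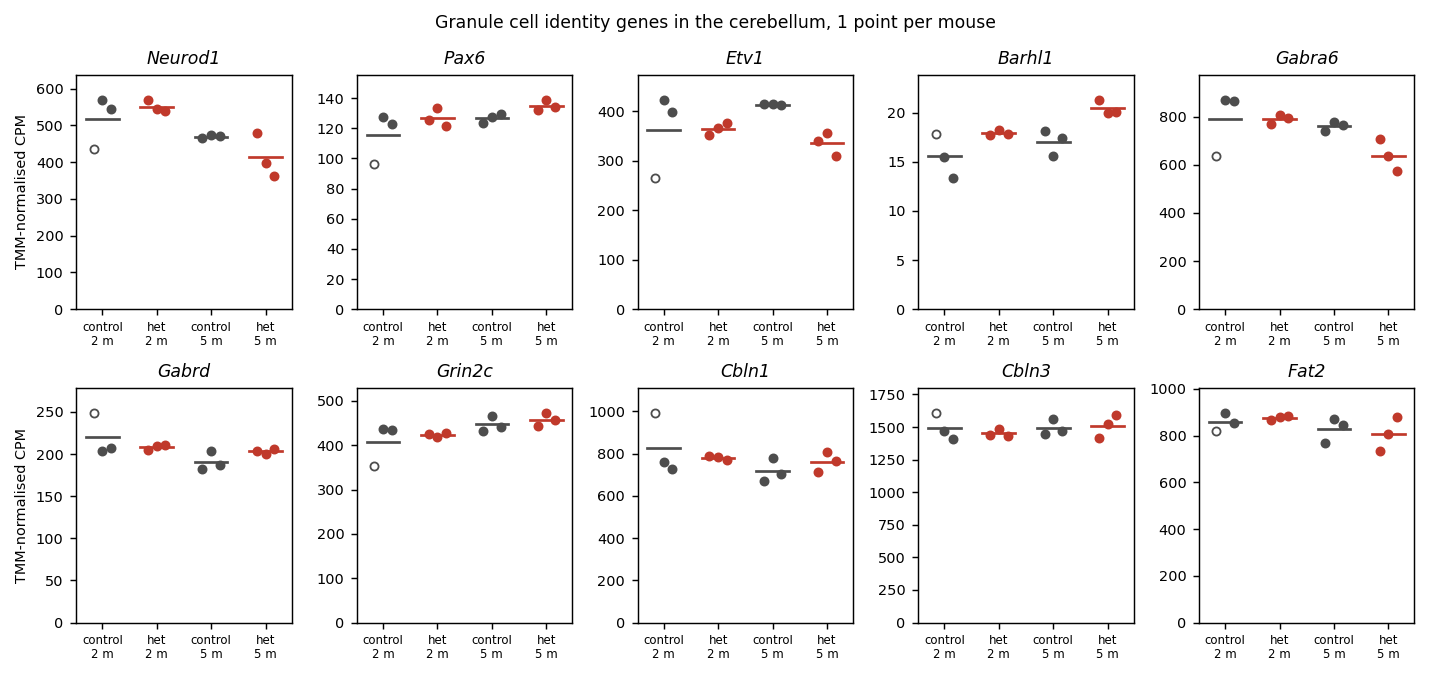
CPM of each member in every control and heterozygous mouse at 2 and 5 months, with bars for group means and an open circle for control mouse 1 of 2 months. At 5 months Etv1 is at 412 to 414 CPM in the controls and 311 to 357 CPM in heterozygous mice, and its open circle at 2 months, at 264 CPM, lies below every other mouse.

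The question at 2 months was whether the members already differed early. None passed the test: 0 of 10 members were called by edgeR, where 0% of 16208 tested genes were called. The unadjusted p was under 0.05 for 0 members, against 836 of all genes, and DESeq2 called 0 members, against 45 of all genes. The groups did not overlap for 0 members, against 14.2% of all genes. The median log2 fold change of the members was 0.02, against 0.01 over all genes. With control mouse 1 left out, again 0 members were called, where 2.19% of 16510 genes were, 4 had an unadjusted p under 0.05, as did 2484 of all genes, and the median was 0.01, against 0.00 over all genes. The groups then did not overlap for 5 members, 3 with heterozygous mice below and 2 above, where 31.3% of all genes did not overlap with 2 controls left.

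Etv1 had 264, 423 and 398 CPM in control mice 1, 3 and 5, and 353, 366 and 376 CPM in heterozygous mice 2, 4 and 6. Control mouse 1 was the lowest of all and the other controls the highest, so the groups overlap, with a log2 fold change of 0.01 (SE 0.16, edgeR adjusted p = 0.986). Without control mouse 1, every heterozygous mouse lay below both remaining controls, and the log2 fold change was -0.17 with an adjusted p of 0.00106, under the fold threshold. After an offset for the length and GC content of transcripts it was -0.14. In 1 fit with the 5-month libraries and without control mouse 1, the adjusted p was 0.0702, and over 14 alternative fits it ran from 0.00106 to 1.00.

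Gabra6 had 636, 870.0 and 865 CPM in control mice 1, 3 and 5, and 769, 806 and 792 CPM in heterozygous mice. The heterozygous values again lay between control mouse 1 and the other controls. The log2 fold change was -0.00 (SE 0.12, edgeR adjusted p = 0.997) and had the other sign with library totals, 0.02, while the offset for length and GC gave -0.16 (adjusted p = 0.6405). Without control mouse 1 it was -0.14, also in the fit over both ages, and all heterozygous mice were below; the adjusted p was 0.00353, the lowest of a range up to 0.999, and the fold threshold was not reached. At an adjusted p under 0.05 with any fold change, 3.63% of all genes passed without this mouse, with Etv1 and Gabra6 among them.

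The remaining 8 members had log2 fold changes from -0.08 to 0.20 at 2 months, the highest for Barhl1, at 17.8, 15.5 and 13.3 CPM in the controls and 17.7, 18.3 and 17.8 CPM in heterozygous mice. Its groups overlapped through control mouse 1. Neurod1 had 437, 569.5 and 544 CPM in the controls and 569.9, 545.5 and 538 CPM in heterozygous mice, and Pax6 ran from 96.3 to 128 CPM and from 122 to 133 CPM. When control mouse 1 was left out, the direction changed for Gabrd (-0.08 to 0.02), Neurod1 (0.09 to -0.01), Cbln1 (-0.08 to 0.07), Cbln3 (-0.04 to 0.02) and Grin2c (0.06 to -0.04), as for Etv1. Pax6 went from 0.13 to 0.01, Fat2 from 0.03 to 0.00 and Barhl1 from 0.20 to 0.31. Cbln1 and Barhl1 then lay above the remaining controls in every heterozygous mouse and Grin2c below, with adjusted p of 0.1995, 0.0928 and 0.645 for the 3 genes.

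**Figure D3:**
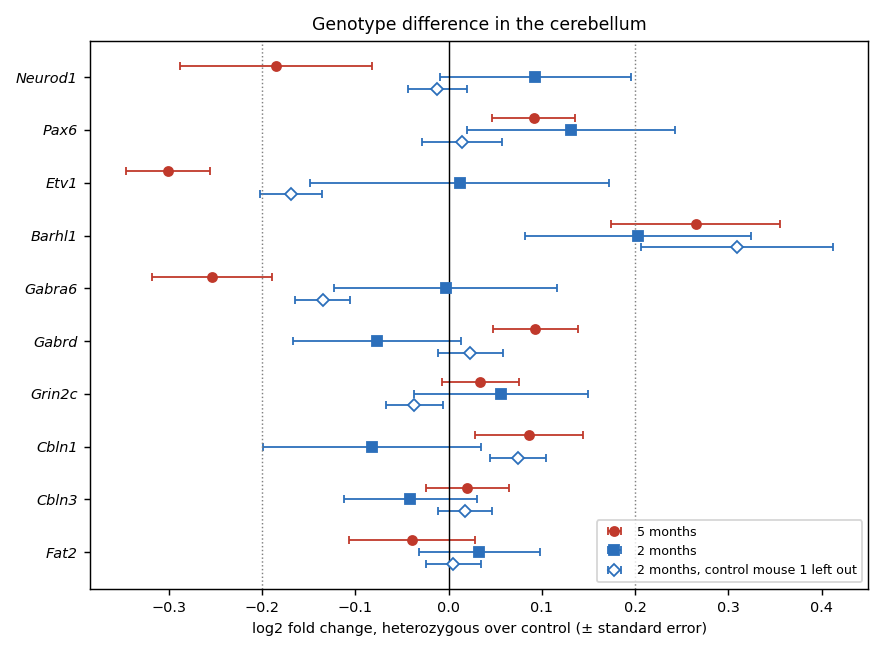
Log2 fold change of each member, heterozygous over control, with its SE at 5 months, at 2 months and at 2 months without control mouse 1; dotted lines mark 0.2 in either direction. Etv1 and Gabra6 were called at 5 months (-0.30 and -0.25, the latter not called with library totals) and lay at 0.01 and -0.00 at 2 months, or -0.17 and -0.14 without that mouse, while Fat2 at 5 months (-0.04) is at 0.00 with library totals and 0.02 with the length and GC offset.

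An interaction of genotype with age over the 12 cerebellum libraries asked whether the members responded differently at 5 months than at 2. For 0 of 10 members was the adjusted p of edgeR under 0.05, where 0% of 16845 genes passed. At an unadjusted p under 0.05 there were 0 members, against 646 of all genes, and DESeq2 called 0 members, against 4 of all genes. Etv1 had an interaction of -0.31 (unadjusted p = 0.111), Neurod1 of -0.28 (0.0674) and Gabra6 of -0.25 (0.103), each more negative at 5 months. Without control mouse 1 of 2 months, Etv1 had -0.13 with an unadjusted p of 0.0398 and an adjusted p of 0.819 in edgeR. The adjusted p of Etv1 ranged from 0.634 to 1.00 over its alternatives. In the fit without that mouse 0 members passed, where 0.0175% of 17177 genes did. There 1 member had an unadjusted p under 0.05, as did 1024 of all genes. A difference between the ages was thus not shown for any member.

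In control mice alone, 5 months was compared with 2 months, where age cannot be told apart from anything else that differed between the 2 sets of mice. No member passed: 0 of 10 in edgeR, where 0% of 16216 genes passed. With an unadjusted p under 0.05 there were 0 members, against 1135 of all genes, and with DESeq2 0 members, against 35 of all genes. Without control mouse 1 of 2 months, 2 members passed, where 2.58% of 16529 genes did, and 3 had an unadjusted p under 0.05, as did 2288 of all genes. Both were lower at 5 months: Neurod1 by -0.26 (adjusted p = 7.12e-06, range 7.12e-06 to 0.922) and Gabra6 by -0.20 (adjusted p = 0.000217, range 0.000217 to 0.995). The 2 remaining controls of 2 months had 569.5 and 544 CPM of Neurod1, against 465, 474 and 470.1 CPM at 5 months. Etv1 showed no such shift without that mouse, with a log2 difference of -0.00.

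In the cortex at 6 months, read for the members outside the cerebellum, 7 members had enough reads to be tested and Gabra6, Fat2 and Barhl1 had not. By edgeR 0 of the 7 were called, where 0.0358% of 16744 genes were. The SE of their log2 fold changes ran from 0.13 for Gabrd to 0.69 for Cbln3, and was 0.15 for Etv1. A change of the size called in the 5-month cerebellum could thus have gone uncalled. Of the 7, 0 had an unadjusted p under 0.05, against 1929 of all genes, and DESeq2 called 0, against 138 of all genes. The median log2 fold change of the 7 members was -0.01, against 0.00 over all genes. Without control mouse 1 of the cortex, 0 of 8 tested members were called, where 0.783% of 17117 genes were. Of these 8, 0 had an unadjusted p under 0.05, against 2123 of all genes, and the median was 0.06. Etv1 had a mean of 40.5 ± 4.23 CPM in control and 38.3 ± 6.63 CPM in heterozygous mice. Cbln3 stood at 1.39 to 1.41 CPM in the controls and at 1.04, 7.54 and 1.08 CPM in the heterozygous mice. The high value was that of heterozygous mouse 2, whose library also held the most Fat2 (5.17 CPM) and Gabra6 (2.59 CPM) of the 6. The Purkinje cell markers Pcp2 (2.70 CPM) and Ppp1r17 (1.10 CPM) were highest in the same library too. Car8 was not, at 15.6 CPM against 15.7 CPM in control mouse 1.

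In the lumbar spinal cord all 10 members passed the filter, and the most cerebellar of them were spread unevenly over the mice. By edgeR 0 members were called, where 0.108% of 17522 genes were. The SE of the log2 fold changes ran from 0.09 for Etv1 to 1.57 for Fat2, and was 1.52 for Gabra6. The absence of calls thus does not show that the members were unchanged. A single member, Etv1, had an unadjusted p under 0.05, as did 1135 of all genes, and DESeq2 called 0 members, against 74 of all genes. The median log2 fold change was 0.00, against 0.01 over all genes. Gabra6 had 19.0, 0.543 and 4.79 CPM in control mice 1 to 3, and 1.25, 3.46 and 18.0 CPM in heterozygous mice 1 to 3. Cbln3 had 12.8, 2.12 and 8.62 CPM, then 3.09, 9.94 and 44.3 CPM. Control mouse 1 and heterozygous mouse 3 were the highest of their groups for both genes, as they were for Fat2 (14.1 and 21.5 CPM) and Neurod1 (11.4 and 12.9 CPM). In these 2 libraries Gabra6 reached 2.40% and 2.28% of its mean in the 5-month control cerebellum. Hoxc9, a marker of the cord, stayed between 15.4 and 19.1 CPM in all 6 libraries, while the Purkinje cell marker Pcp2 had 2.43, 0.988 and 3.06 CPM in control mice 1 to 3 and 0.772, 2.80 and 10.5 CPM in heterozygous mice 1 to 3. Control mouse 1 was thus not the highest control for Pcp2, nor for Car8, at 8.64 CPM against 15.1 CPM in control mouse 3. Heterozygous mouse 3 was the highest of the 6 for both genes. It had 34.0 CPM of Car8, against 6.06 and 16.6 CPM in heterozygous mice 1 and 2. What RNA these reads come from was not tested. With both libraries left out, an alternative chosen after their values were seen, 0 members were called. The share of all genes called in that fit was not computed.

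Etv1 in the spinal cord had 67.7, 53.4 and 61.8 CPM in control mice 1 to 3 and 56.3, 50.9 and 51.7 CPM in heterozygous mice. Control mouse 2 fell among the heterozygous mice, so the groups overlap. The log2 fold change was -0.20 with an unadjusted p of 0.0473 and an adjusted p of 0.769 (edgeR, range 0.164 to 1.00 over the alternatives). Grin2c had 79.6, 29.1 and 28.3 CPM in the controls and 29.0, 26.9 and 36.0 CPM in heterozygous mice, so that control mouse 1 alone set the control mean apart.

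**Figure D4:**
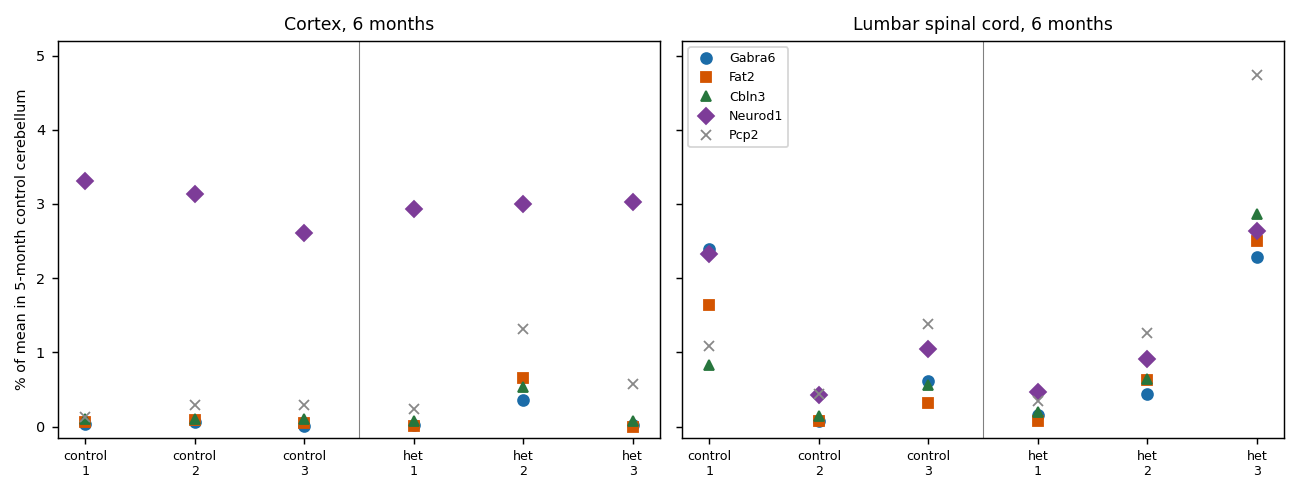
Level of Gabra6, Fat2, Cbln3, Neurod1 and the Purkinje cell marker Pcp2 in each cortex and spinal cord library, in percent of the mean of the 5-month control cerebellum. Spinal cord control mouse 1 and heterozygous mouse 3 stand highest for Gabra6, at 2.40% and 2.28%.

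Around the members, other genes of the granule cell also fell in part. Of 20 further granule cell genes tested at 5 months, 3 fell and none rose, where 5.09% of all genes were called. Among the 20, the unadjusted p of 8 lower and 2 higher genes was below 0.05, 10 in all, against 3338 of all 16481 genes; DESeq2 called 4, and the median log2 fold change was -0.06. Neurod2, named after its values were seen, lay above every control in each heterozygous mouse, at means of 139 and 159 CPM, but at 0.19 (edgeR adjusted p = 0.0134) it was under the fold threshold; it was called with library totals (0.24) and without control mouse 9 (0.23) or heterozygous mouse 8 (0.20). Rbfox3, the RNA-binding protein detected as NeuN in neuronal nuclei, fell from 438 ± 9.03 to 354 ± 29.3 CPM (log2 fold change -0.31, edgeR adjusted p = 0.000914). Tiam1, an activator of the GTPase Rac, fell from 349 ± 9.97 to 295 ± 15.9 CPM (-0.24, adjusted p = 0.00191). Cadps2, which acts in the release of dense-core vesicles, fell from 308 to 259 CPM (-0.25, adjusted p = 0.00560), and without heterozygous mouse 12 it was at -0.20 and just under the fold threshold. The count was 5 without heterozygous mouse 8 and 6 without mouse 10, and 1 in the fit of all 12 libraries. Zic1, the most abundant gene of the list, had 1072 and 1039 CPM and was not called.

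Of the 10 genes of granule cell precursors, 7 were tested and Atoh1 had no read in any 5-month library. Barhl2, the sister gene of Barhl1, rose from 40.9 ± 1.93 to 50.1 ± 3.90 CPM (log2 fold change 0.29, edgeR adjusted p = 0.0113), but not without control mouse 11 (adjusted p = 0.0848), without heterozygous mouse 10 (0.0764) or in the fit of all 12 libraries. It was the only call of the list, with 2 genes at an unadjusted p under 0.05, 1 called by DESeq2 and a median of -0.07. Cntn2, the most abundant, had 461 and 485 CPM and was not called.

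Among the families of the members, GABA-A receptor subunits counted 2 calls in 14 tested genes of 19, both lower and Gabra6 among them, where 2.72% of all genes were called lower, with 5 at an unadjusted p under 0.05, all lower, 2 called by DESeq2 and a median of -0.02. Their summed level was 2636, 2712 and 2636 CPM in the controls and 2525, 2438 and 2353 CPM in heterozygous mice, which do not overlap. With library totals, and without any 1 of control mice 7, 9 and 11 and heterozygous mice 10 and 12, the family held 1 call, since Gabra6 was lost, and in the fit of all 12 libraries 0.

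NMDA receptor subunits held 1 call in 7, Grin2a, with 2 genes at an unadjusted p under 0.05, 1 called by DESeq2 and a median of 0.03. Grin2a, the other major GluN2 subunit beside Grin2c in granule cells, fell from 104 to 89.3 CPM (log2 fold change -0.22, edgeR adjusted p = 0.00977). It missed the fold threshold with library totals (-0.18) and after the offset for length and GC (-0.16), and it missed the threshold on p without control mouse 11 (adjusted p = 0.0775) and in the fit of all 12 libraries. Grin1, the obligatory subunit, had 383 and 366 CPM and was not called. Of the cerebellins and their partners 0 of 8 tested were called by edgeR and 0 by DESeq2, with 1 gene at an unadjusted p under 0.05 and a median of 0.03, and after the offset for length and GC the list held 1 call. Of the 4 Fat cadherins 0 were called by edgeR and 0 by DESeq2, 2 (Fat1 and Fat4) had an unadjusted p under 0.05, and the median was -0.01.

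Markers of the other cell types of the cerebellum were read beside the members, since a bulk library holds them all; their part in the members' values was not tested. Of 12 Purkinje cell markers, Homer3 (-0.25, adjusted p = 0.000622) and Ppp1r17 (-0.30, adjusted p = 0.00128) fell and Pcp2 rose (0.205, adjusted p = 0.00869), with 6 at an unadjusted p under 0.05, 3 called by DESeq2 and a median of -0.03. Pcp2 was under the fold threshold without control mouse 7 (0.17), control mouse 9 (0.20), heterozygous mouse 10 (0.19) or mouse 12 (0.19) and after the offset for length and GC (0.16). The summed level of these markers was 8660.0, 8634 and 8768 CPM in the controls and 8191, 8796 and 8668 CPM in heterozygous mice, which overlap, with Itpr1 the most abundant. Pcp2 was also the only call among 5 cerebellum markers outside the members, of which Car8 was the most abundant (2 at an unadjusted p under 0.05, 1 called by DESeq2, median -0.09), and that call was lost in the same fits. In the fit of all 12 libraries, 0 Purkinje cell markers and 1 marker each of the interneurons and of Bergmann glia and astrocytes were called. Of 10 markers of molecular layer and Golgi interneurons, Nxph1 rose (0.47, edgeR adjusted p = 0.00269). Slc6a5, the glycine transporter of Golgi cells, fell (-0.28, adjusted p = 0.00903, and 0.0532 without control mouse 7). Of the 10, 7 had an unadjusted p under 0.05, 5 higher and 2 lower, DESeq2 called 2 and the median was 0.14. Their summed level was 1779, 1883 and 1846 CPM in the controls. In heterozygous mice it was 2008, 1941 and 1950 CPM, all above the controls. Gad1 was the most abundant of these markers. Of 4 unipolar brush cell markers, with Eomes the most abundant, 0 were called by edgeR, 0 by DESeq2 and 0 at an unadjusted p under 0.05 (median -0.05), and 1 without control mouse 7 or without heterozygous mouse 8.

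Of the marker lists, that of microglia held the most calls. Of 11 microglia markers tested 7 rose, where 9 had an unadjusted p under 0.05 and DESeq2 called 8, with a median of 0.78. Their summed level was 151, 154 and 151 CPM in the controls and 221, 188 and 246 CPM in heterozygous mice. Among the called markers, the steepest log2 fold changes were those of Trem2 (0.94), Tyrobp (0.93), Cd68 (0.93) and C1qc (0.78). Tyrobp was not called without control mouse 7 (adjusted p = 0.0950), control mouse 11 (0.107) or heterozygous mouse 12 (0.140), nor in the fit of all 12 libraries (0.178). Of 9 markers of Bergmann glia and astrocytes, Gdf10 (0.23, adjusted p = 0.00312) and the water channel Aqp4 (0.23, adjusted p = 0.00342) rose, with 7 at an unadjusted p under 0.05, 5 of them higher and 2 lower, 3 called by DESeq2 and a median of 0.11. Gfap, named after its values were seen, had 119 and 263 CPM and the largest log2 fold change of the list, 1.15; edgeR did not call it (adjusted p = 0.0653). DESeq2 did (3.32e-06), as did edgeR without heterozygous mouse 10 (3.98e-05), with non-robust dispersions (0.000102) and in the fits of 12 (0.0119) and 11 libraries (0.0107), and the highest adjusted p was 0.211. Gdf10 was under the fold threshold without heterozygous mouse 12 (0.20) and Aqp4 without control mouse 11 (0.19), and Slc1a3 was the most abundant.

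The remaining marker lists held no call at 5 months. Of 8 oligodendrocyte markers, with Mbp the most abundant, 0 were called by edgeR and 0 by DESeq2, 3 had an unadjusted p under 0.05 and the median was -0.09; 1 was called without control mouse 9 or without heterozygous mouse 8. Their sum was 4434, 4276 and 4492 CPM in the controls and 4072, 3956 and 3958 CPM in heterozygous mice. Of 6 endothelial markers, led by Flt1, 0 were called by either tool and 1 had an unadjusted p under 0.05 (median -0.10). Of 5 choroid plexus markers 0 were called by either tool and 0 had an unadjusted p under 0.05 (median 0.54), although 1 was called without control mouse 7; Ttr was the most abundant, and their sum was 1944, 653 and 1116 CPM in the controls and 1813, 1935 and 2071 CPM in heterozygous mice. Of 5 cortex neuron markers tested, led by Cux2, 0 were called by either tool and 1 had an unadjusted p under 0.05 (median 0.03). None of the 7 spinal cord markers had enough reads to be tested.

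At 2 months, 0 genes of any of these lists were called by edgeR or by DESeq2, with 0 to 4 genes per list at an unadjusted p under 0.05, the most for the Purkinje cell markers. The further granule cell genes summed to 6266, 6181 and 6099 CPM in the controls and 6006, 5930 and 5889 CPM in heterozygous mice. Sums of the Purkinje cell, Bergmann glia and astrocyte, and endothelial markers also lay below every control. That of the precursor genes lay above, and the other lists overlapped. These sums were not tested. Leaving control mouse 1 out, 4 Purkinje cell markers were called, and 1 gene each of the further granule cell genes, the cerebellins and partners, and the Bergmann glia and astrocyte markers.

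**Figure D5:**
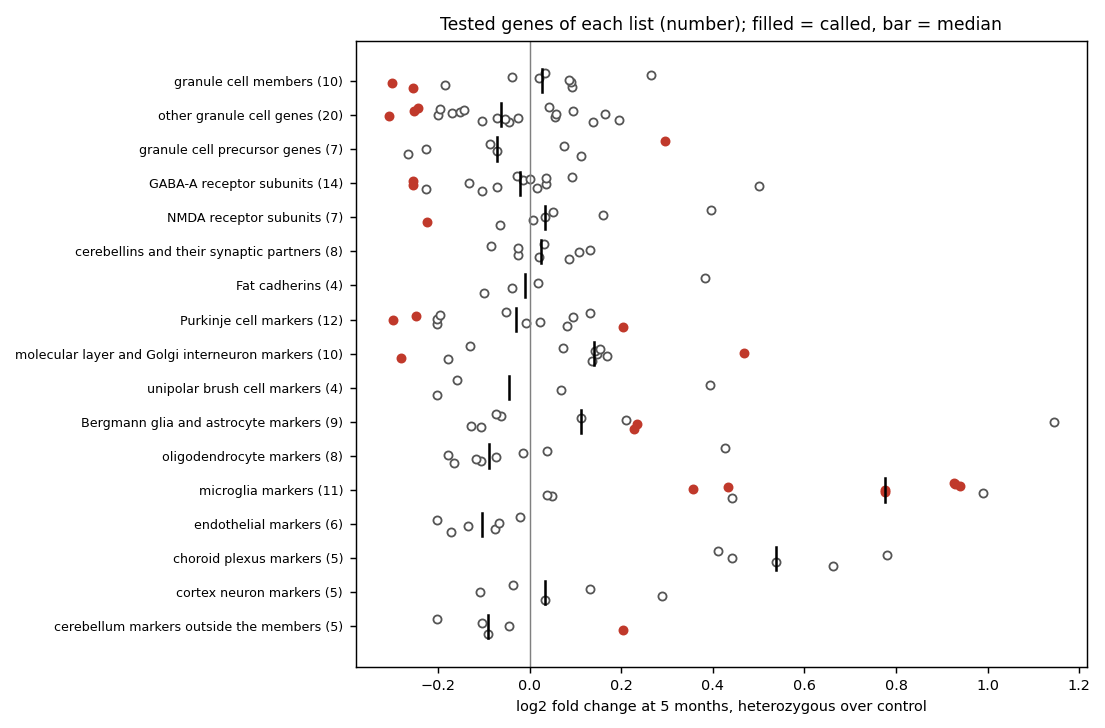
Log2 fold change at 5 months of each tested gene, heterozygous over control, by list, with filled points for called genes and a bar for the median of the list. The members have a median of 0.03 with 2 called lower, and the microglia markers a median of 0.78 with 7 called higher.

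A wider set of cerebellar genes was drawn by tissue alone, without regard to cell type. The 100 genes most enriched in the cerebellum of 2-month controls, 6 of them members, were read in the other mice, those of 5 months. Of these 100 genes 26 fell, Gabra6 included, and 6 rose, where 5.09% of all genes were called, and 32 were called as well when the set was chosen without control mouse 1; 54 had an unadjusted p under 0.05, against 3338 of all 16481 genes, DESeq2 called 31, against 641 of all genes, 73 had a negative fold change and the median was -0.10, against 0.01 over all genes. The set mixes granule cell, Purkinje cell and glial genes: Homer3 and Ppp1r17 fell in it, and Pcp2, Barhl2 and the Bergmann glia marker Gdf10 rose. Read the other way, 99 tested genes chosen in 5-month controls, with 7 members among the chosen, had 0 calls at 2 months by edgeR, 30 at an unadjusted p under 0.05, against 836 of all 16208 genes, 9 calls by DESeq2, against 45, and a median of -0.05, and 19 calls without control mouse 1. Among the 10 genes most enriched in 5-month controls, Sycp1 (-0.84, adjusted p = 5.83e-06) and Nrk (0.51, adjusted p = 3.01e-06) had the largest fold changes at 5 months, while Cbln3 and Fat2, at the head of that ranking, were not called at either age.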

How the data were processed

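The authors deposited raw counts, in 2 tables of 46078 genes, after Trimmomatic 0.30, HISAT2 2.0.1 on mm10 and HTSeq 0.6.1; the strand setting, counting mode and annotation release were not found, so genes that overlap others are uncertain. RNA came from flash-frozen tissue (TRIzol, NEBNext Ultra, Illumina HiSeq). Separate fits were made for each comparison with edgeR 4.0.16 (R 4.3.3), TMM, filterByExpr (minimum count 10, minimum total 15), robust quasi-likelihood F tests and Benjamini-Hochberg adjustment over all tested genes. Exon lengths were available for 45143 genes.

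The members and the 17 other lists were chosen with earlier results of these data known. Genes named are all members, the family genes of the GABA-A, NMDA, cerebellin and Fat lists, in each list the called genes (at most 4 per age, by size of change) and the gene with the highest mean CPM, and the 10 genes most enriched in the cerebellum of 5-month controls. Results for some single genes that this rule takes are not reported here, and list counts include them. Hoxc9 and Pcp2 in the spinal cord and the Hox genes, Mnx1 and Atoh1 in the cerebellum were given as tissue markers.

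Alternatives were DESeq2 1.42.0, its size factors in edgeR, library totals only, no fold change threshold, no low-count filter, non-robust dispersions, a loess offset for transcript length and GC content (span 0.4), all 12 libraries of a table in 1 fit, a replicate block in cortex and cord, leaving out each library in turn, and sets of 50 and 200 enriched genes. A fit of 11 cerebellum libraries without control mouse 1 of 2 months, the spinal cord without 2 libraries, and ranks by the difference of mean log2 CPM were chosen after seeing the data. By the last, Gabra6 ranked 3, Neurod1 15, Pax6 54, Cbln1 44, Grin2c 114 and Gabrd 1268. Tables and plots used Python 3.11.15, numpy 2.4.6, pandas 2.3.3, scipy 1.17.1 and matplotlib 3.10.9.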

Additional observations from a re-analysis of the deposited data

Results flagged for a closer look

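For 3 members, every heterozygous mouse lay on one side of the control mean in the cerebellum and on the other side in another tissue. These differences between tissues were not tested, and tissue cannot be told apart from age and count table. Every member was scanned over several pairs of comparisons, and the share of all genes with such opposite sides was not computed. Gabrd had a log2 fold change of 0.09 in the 5-month cerebellum and -0.20 in the cortex, a difference of 0.295. In the cortex its groups overlap and control mouse 1 is the library that stood apart over all genes; without it the log2 fold change was -0.09 (adjusted p = 0.751), and heterozygous mouse 1, at 96.0 CPM, lay above the mean of the other controls, 95.1 CPM. Barhl1 had 0.27 in the 5-month cerebellum and 0.20 in the 2-month cerebellum but -0.36 in the spinal cord, differences of 0.63 and 0.567; in the cord it rested on 24 to 53 reads per library, and there the groups overlap. Grin2c had 0.06 in the 2-month cerebellum and -0.58 in the spinal cord, a difference of 0.632, with control mouse 1 of each comparison farthest from the other controls, at 353 CPM in the cerebellum and 79.6 CPM in the cord; without that mouse both signs changed, to -0.04 in the cerebellum and 0.09 in the cord. None of these 3 genes was called by edgeR with TMM or by DESeq2; Barhl1 at 5 months was called with library totals only.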

How the results depend on the processing

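Of 1236 values recomputed over 93 results, 1113 kept their direction and their side of the threshold or their size, 38 were weaker, 2 stronger, 23 reversed and 60 moved. For the members at 5 months, 135 of 150 were the same, 8 weaker, 2 stronger and 5 reversed. At 2 months 132 of 150 were the same and 18 reversed.

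The count of members called at 5 months was 0 with all 12 libraries in 1 fit and 1 to 3 when single libraries were left out. For these fits the share of all genes called was not computed, and the counts of members and lists stand without it. Members with an age difference in controls were 0 to 2 when single libraries were left out. Of 50 and 200 enriched genes, 18 and 56 were called at 5 months, as fewer or more genes were read; at 2 months the 100 enriched genes gave 0 to 19 calls when single libraries were left out. Reversed at 5 months were Fat2 (library totals 0.003, length and GC offset 0.022, single libraries left out -0.108 to 0.023) and Cbln3 (-0.019 to 0.062). With single libraries left out at 2 months, log2 fold changes changed sign for Gabra6 (-0.135 to 0.072), Gabrd (-0.128 to 0.023), Neurod1 (-0.012 to 0.169), Etv1 (-0.169 to 0.14), Cbln1 (-0.167 to 0.074), Cbln3 (-0.082 to 0.018) and Grin2c (-0.037 to 0.109). Without control mouse 1 in 1 fit of 11 libraries they were 0.023 for Gabrd, -0.013 for Neurod1, -0.169 for Etv1, 0.074 for Cbln1, 0.018 for Cbln3 and -0.037 for Grin2c. Library totals gave 0.025 for Gabra6 at 2 months and the length and GC offset -0.137 for Etv1. The cause of these changes was not tested.

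With the replicate number as a block in the cortex and spinal cord, 0 members were called in either. The share of all genes called in those fits was not computed. The labels describe no pairing: across genes, the deviations of libraries of the same number from their group means had correlations of -0.154, -0.038 and 0.035 in the cortex and -0.037, 0.163 and -0.045 in the cord. A group size of 3 mice limits every test, and in the cortex too few reads of Gabra6, Fat2 and Barhl1 were counted for a test.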
